A study of Mus musculus with 36 samples.

Results

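Chromatin accessibility was examined at the genes of 4 Toll-like receptors of the cell surface (Tlr1, Tlr2, Tlr4, Tlr6), the co-receptor Cd14, 2 endosomal receptors (Tlr3, Tlr9) and 2 adaptors (Myd88, Ticam1). Members were the peaks of the deposited count table that overlap one of the 9 gene bodies or the 10 kb to either side, in mm10 coordinates. They numbered 57 of 119751 peaks. Of these, 24 lay in gene bodies and 33 outside, 12 also overlapped another gene, and 56 had enough counts to be tested. Open chromatin was profiled by ATAC-seq, which reads where a transposase can cut DNA, in dendritic cells grown from the bone marrow of female C57BL/6J mice of 6 to 8 weeks in medium with 15 ng/mL GM-CSF. No genotype beyond the strain is given. The cells were left without ligand (control) or given ligands for 6 h. Of the 6 single ligands, PAM is written P, depleted zymosan Z, LPS L and HMW H. SeV is written S and 3',3'-cGAMP is written cG. The 8 pairs (PL, PH, LH, PS, PcG, ScG, ZS, ZcG) and 3 triplets (PLH, PScG, ZScG) are named by their letters. The labels do not say what PAM and HMW stand for. Each of the 18 groups had 2 libraries, each made from 50000 cells, and nothing says whether they came from separate mice. P-values therefore measure the spread between these libraries, which may be technical.

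Toll-like receptors are membrane proteins that bind conserved microbial molecules and recruit adaptor proteins. Of the 9 genes studied here, the receptors at the cell surface bind lipids and lipoproteins, and those in endosomes bind nucleic acids. Myd88 serves nearly all of the family, and Ticam1 (TRIF) serves Tlr3 and, from endosomes, Tlr4. Dendritic cells use these receptors to detect microbes and then mature. LPS is the ligand of Tlr4 with Cd14, 3',3'-cGAMP is a cyclic dinucleotide that acts through STING, and zymosan is a preparation of yeast cell wall.

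All 9 genes had a peak over a start, taken from RefSeq promoter entries where one existed and otherwise a gene end. RefSeq (GRCm38.p6) held promoter entries for 7 of the 9 genes. Tlr4 and Cd14 had none. The 250 bases before the start are printed for Tlr9, Myd88 and Ticam1. The Tlr9 start peak was called higher in 10 of 17 stimulations, and those of Myd88 and Ticam1 were called lower in 1 each. Capitals mark matches, on either strand, to 4 motif spellings: AANNGAAA (the core bound by interferon regulatory factors), GGGANNNNCC (NF-kappaB type), TGANTCA (AP-1) and GAGGAAG (PU.1 type). The printed stretches lie at chr9:106222348-106222597 (Tlr9, plus strand), chr9:119340019-119340268 (Myd88, minus strand) and chr17:56276768-56277017 (Ticam1, minus strand).
Tlr9: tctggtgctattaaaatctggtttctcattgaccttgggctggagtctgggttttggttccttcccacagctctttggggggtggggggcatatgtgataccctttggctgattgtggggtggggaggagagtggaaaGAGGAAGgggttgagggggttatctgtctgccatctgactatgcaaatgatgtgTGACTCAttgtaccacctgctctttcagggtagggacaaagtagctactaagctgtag
Myd88: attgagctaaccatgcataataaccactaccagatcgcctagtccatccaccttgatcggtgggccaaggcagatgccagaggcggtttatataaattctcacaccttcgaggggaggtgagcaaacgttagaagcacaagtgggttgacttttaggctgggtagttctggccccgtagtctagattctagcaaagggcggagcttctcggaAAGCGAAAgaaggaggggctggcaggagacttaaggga
Ticam1: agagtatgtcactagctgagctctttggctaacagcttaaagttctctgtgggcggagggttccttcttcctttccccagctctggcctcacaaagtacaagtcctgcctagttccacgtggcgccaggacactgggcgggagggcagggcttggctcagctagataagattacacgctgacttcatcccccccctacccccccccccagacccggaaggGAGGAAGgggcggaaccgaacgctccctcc

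For Tlr3 and Tlr2, with start peaks called lower in 2 of 17 stimulations each, only windows of 30 bases around some matches are shown. Matches are again in capitals. The windows lie at chr8:45410421-45410450 and chr8:45410572-45410601 for Tlr3 and chr3:83841761-83841790 for Tlr2, all on the minus strand. In full, Tlr2 held 2 AANNGAAA and 1 GGGANNNNCC, and Tlr3 held 1 AANNGAAA and 2 GGGANNNNCC. A Tlr6 promoter, whose start peak was never called, held 4 AANNGAAA and is not printed.
Tlr3, interferon regulatory factor core: aagtgaatggcTTTCACTTtgtttagacac
Tlr3, NF-kappaB type: agttgtttctGGGAGTTTCCtgcttttgag
Tlr2, NF-kappaB type: aggacacctgGGGAATTCCCacacggagcc

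Such matches are common. Among all 32851 RefSeq promoters of the same length, 21.3% held AANNGAAA, 17.6% held GGGANNNNCC, 10.6% held GAGGAAG and 6.75% held TGANTCA. Tlr9 held 1 TGANTCA match, 52 to 58 bases before the start, and Myd88 held 1 AANNGAAA match, 31 to 38 bases before it. Matches of different spellings did not overlap in the 5 promoters printed in full or in part. A match is a description of the letters and not evidence of a bound factor.

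Libraries held 19097027 to 39977088 counts, of which 8181254 to 21985891 lay outside the mitochondrial genome. The mitochondrial share of counts was 57.3% to 63.1% in the 10 libraries of control, Z, ZcG, ScG and ZScG and 44.1% to 58.1% in the 26 libraries of the other 13 groups. For the 13 stimulations in the lower set, a difference from control that belongs to this share cannot be told apart from one that belongs to the ligand. Comparisons within one set are therefore given beside the pooled ones. Of 8 dendritic and general myeloid markers, 8 had a peak within 1 kb of a start or gene end, with a summed level of 127 to 189 CPM (counts scaled to 1000000 outside mitochondria) over libraries, but Zbtb46, a marker of conventional dendritic cells, reached a mean of only 0.803 CPM. All 4 macrophage markers had one too, and their summed level was highest in control (134 CPM) and lowest in PScG (94.7 CPM). Granulocyte markers had a peak at 2 of 5 genes and ran from 20.2 CPM in ZScG to 47.9 CPM in P. For T cells (1 of 4), natural killer cells (1 of 3), mast cells and basophils (1 of 3), erythroid (1 of 3) and stromal cells (2 of 3) the summed level was at most 18.5 CPM in any library. A single B cell marker had a peak, with group means from 1.26 CPM in P to 7.90 CPM in PScG, beside 1.42 CPM in control. Cd3e, Ncr1, Ly6g, Elane, Mpo and Gata1 had no peak there. In bulk cells, a smaller share of a cell type and less open chromatin per cell cannot be told apart, and the part of cell mixture in the results below was not tested.

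The first question was whether accessibility at these loci varied over the design at all. By edgeR's quasi-likelihood test across the 18 groups, with Benjamini-Hochberg adjustment over all 119464 tested peaks and a threshold of 0.05, 38 of 56 member peaks differed (67.9%), beside 62.5% of all tested peaks. Of the 22 members with a mean of at least 5 CPM, 19 differed, and of the 34 below it, 19 did. The share is thus near the background, and the loci are described below by which peaks moved and in which direction. Means ran from 0.415 to 79.1 CPM with a median of 3.04, against 2.15 for all tested peaks. CPM is not corrected for peak length, so levels are compared between groups and not between peaks.

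**Figure D1:**
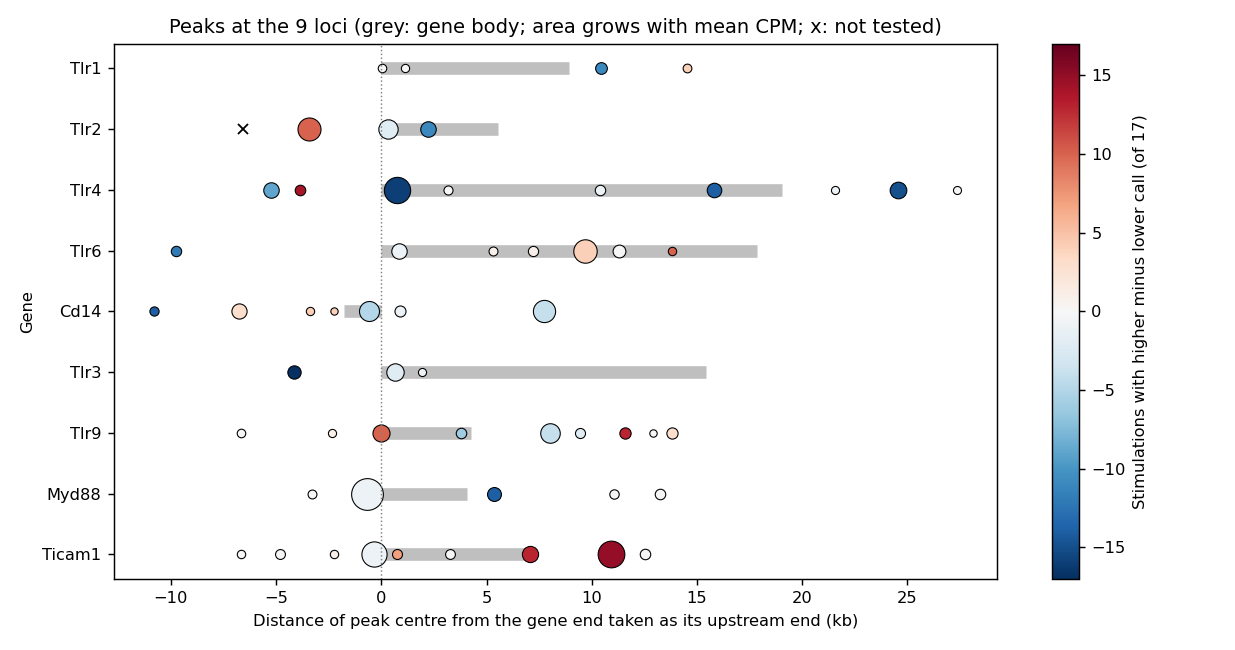
Tested peaks of the 9 loci by the distance of their centre from the gene end taken as the upstream end (kb, x axis), one row per gene, with transcription running to the right except for Tlr4 and Cd14, drawn along ascending coordinates because the gene table gives no strand. Colour gives the number of 17 stimulations in which a peak was called higher minus the number in which it was called lower, and circle area grows with mean CPM. Peaks with 14 or more lower calls lie upstream of Tlr3, downstream of Myd88, outside Cd14 and at Tlr4 (3 peaks), and peaks with 13 or more higher calls at Ticam1 (2 peaks), downstream of Tlr9 and outside Tlr4.

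Each stimulation was then set against control. Of 952 tests (56 peaks in 17 stimulations), 122 were called higher and 169 lower, 30.6% in all beside 25.2% over all peaks. Over all peaks 13.0% of tests were called higher and 12.3% lower. At the member peaks, 16 rose only, 23 fell only, 3 moved both ways and 14 were never called. Of the 291 calls, 153 also held with each library of the comparison left out in turn. Among the 4 stimulations within the set of high mitochondrial share, 18 tests were higher and 42 lower of 224 (26.8%, beside 21.9% over all peaks). When libraries were scaled by total counts in place of TMM factors, 213 tests were higher and 107 lower, so that 66.6% rather than 41.9% of calls were higher. That scaling raised the median log2 fold change of all peaks by 0.32 (median over contrasts, from -0.06 to 0.42). Each gene's counts under it follow below.

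**Figure D2:**
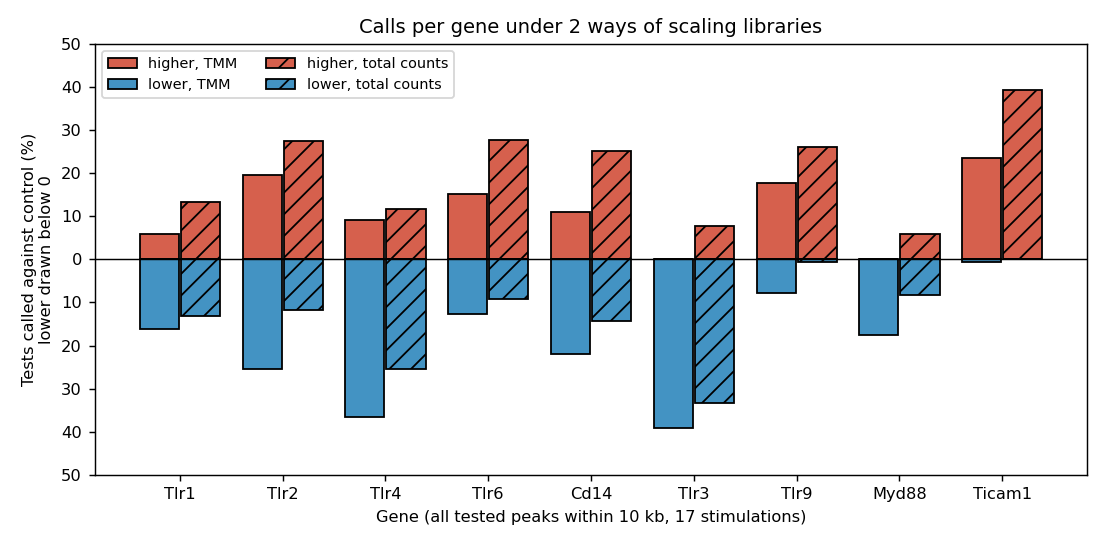
Percentage of tests against control called higher (drawn above 0) and lower (drawn below 0) for each gene over its tested peaks and 17 stimulations, with TMM scaling (plain) and total-count scaling (hatched). Lower calls outnumber higher ones at Tlr4, Tlr3 and Myd88 under both, and higher ones lead at Ticam1, Tlr9 and Tlr6 under both. With TMM scaling the lead at Tlr9 depends on peaks that overlap Alas1.

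The number of members called against control was 4 of 56 for Z, 11 for H, 14 for P, 16 for L, 18 for S and 19 for cG, beside 5.91%, 10.7%, 20.5%, 22.3%, 27.9% and 23.3% of all peaks. The pairs LH, ZcG, PL, PS and PcG gave 16, 16, 17, 17 and 18 calls, beside 21.8%, 21.6%, 27.3%, 33.4% and 33.0% of all peaks. ScG, ZS and PH gave 19, 20 and 21, beside 27.7%, 28.3% and 26.4%. The triplets PLH, PScG and ZScG gave 23, 21 and 21 calls, beside 29.7%, 37.1% and 32.3% of all peaks. The 9 start peaks were called in 39 of 153 tests (25.5%, 11 higher and 28 lower), with a median absolute log2 fold change of 0.278. The other 47 tested peaks were called in 252 of 799 tests (31.5%), with a median of 0.579. For each gene, the peak with the largest F across the groups is described below. That peak was chosen by its values in these data, so its calls cannot be weighed against the share over all peaks.

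**Figure D3:**
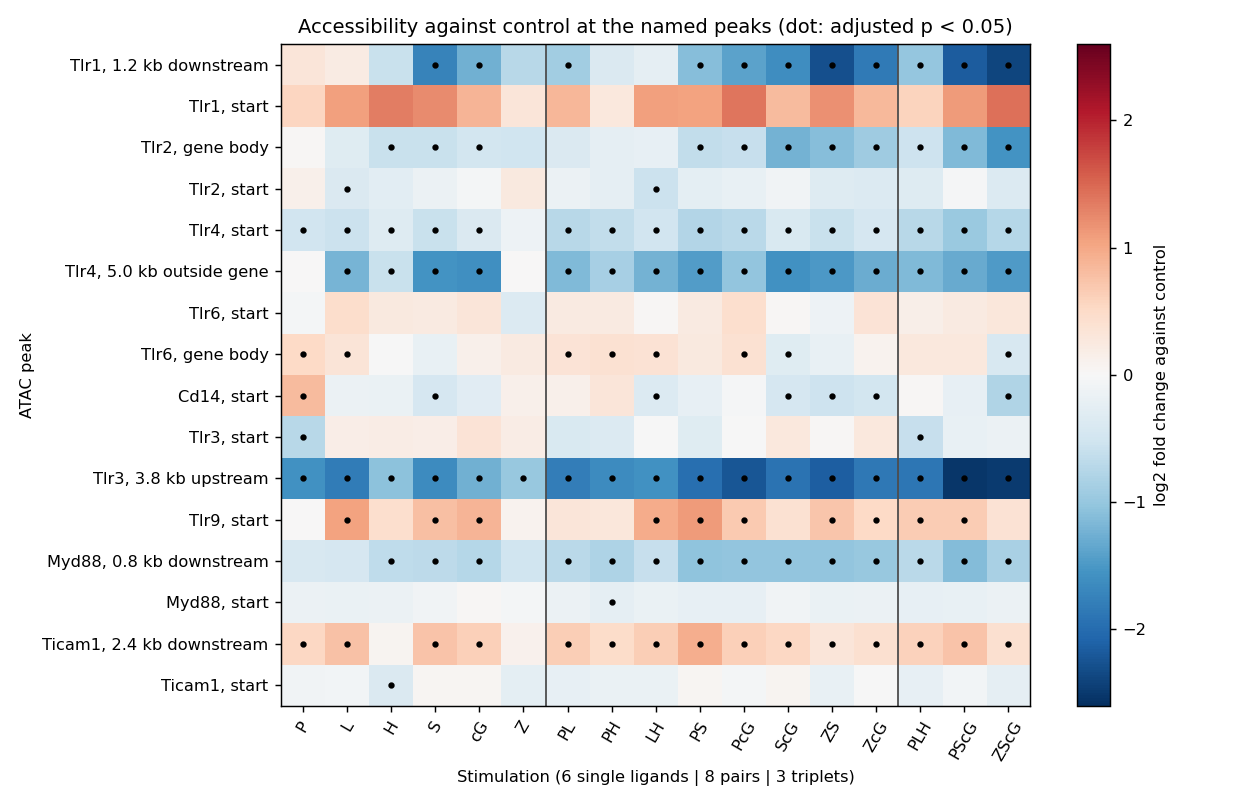
Log2 fold change against control (colour) at the 16 named peaks (rows) for 17 stimulations (columns), with a dot where the adjusted p-value of edgeR's quasi-likelihood test is under 0.05. The peak 3806 bp upstream of Tlr3 is lower in all 17 columns, and the Tlr4 start is lower in all but Z.

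Tlr4, the receptor for LPS, was less accessible at its start and at 3 of its 8 other peaks, each in at least 9 of 17 stimulations, and more accessible at 1. Over its 9 peaks, 56 of 153 tests were lower and 14 higher, and under total-count scaling 39 were lower and 18 higher. All 14 higher calls belonged to a single peak, described last. The start peak (chr4:66827257-66829357) stood at 69.1 and 69.3 CPM in the 2 control libraries. It was 60.9 and 64.8 CPM in Z, and no other library exceeded 57.0 CPM, the lowest being a PScG library at 31.0 CPM. Control thus lay above every stimulated library, with Z next and no overlap between Z and H below it. The single ligands H, cG, P, L and S averaged 54.9, 53.1, 49.3, 47.2 and 46.4 CPM. Among pairs the mean ran from 40.7 CPM in PS to 52.4 CPM in ScG. The triplets stood at 41.7 CPM in PLH, 41.6 CPM in ZScG and 35.5 CPM in PScG. The peak was lower in 16 of 17 stimulations, by -0.34 ± 0.103 (log2, SE) in H to -0.95 ± 0.107 in PScG (adjusted p = 1.67e-14), and Z gave -0.14 ± 0.105 (adjusted p = 0.515). The H call was lost without either control library or H replicate 1 (adjusted p up to 0.2), and the ScG call without ScG replicate 2 (0.068). Under total-count scaling 10 of the 16 calls held. Within the high set, ZcG, ScG and ZScG were lower, by -0.44, -0.40 and -0.73.

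A peak 5020 bp beyond the other end of Tlr4 (chr4:66851601-66852559) separated the ligands more sharply. It was named for the largest F among the Tlr4 peaks, so this follows from how it was chosen. It held 28.2 and 24.5 CPM in control, 26.6 CPM in both P libraries, and 24.5 and 28.5 CPM in Z. The H libraries held 19.1 and 15.8 CPM, and every other library lay between 7.04 and 14.7 CPM. Control, P and Z overlapped one another and overlapped no other group. In P the log2 fold change was 0.02 ± 0.156 (adjusted p = 0.963) and in Z 0.02 ± 0.161 (0.972). In L, S and cG it was -1.20 ± 0.164, -1.55 ± 0.169 and -1.60 ± 0.173, each with an adjusted p of at most 5.45e-10. H gave -0.59 ± 0.16 (0.00706), a call lost without control replicate 1 (0.15) or H replicate 2 (0.15). Adding a second ligand to P or Z lowered this peak wherever it was tested. PL, PH, PS and PcG were lower than P, and ZS and ZcG were lower than Z. These comparisons use no control library. ZS and Z lie in different mitochondrial sets, and each of the others compares groups of the same set. Within the high set, ZcG, ScG and ZScG were lower than control by -1.29, -1.57 and -1.48, and Z gave the 0.02 above.

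Another Tlr4 peak (chr4:66823439-66823985), 3566 bp beyond the start side of the gene, rose and was singled out after its values were seen. It held 0.437 and 0.579 CPM in control, 5.12 and 6.43 CPM in P, and 8.09 and 6.74 CPM in PH. In cG it held 0.636 and 0.287 CPM and in ScG 0.651 and 0.765 CPM. The peak was thus near its control level where cG was given alone or with S, and high where P was given without S. It was called higher in 14 of 17 stimulations, with a log2 fold change of 3.47 ± 0.474 in P and 3.83 in PH. S (1.39), cG (-0.17) and ScG (0.45) were not called. The H, Z, ZS and ZScG calls were each lost without at least 1 library, and in ZScG the value fell to 0.42 without ZScG replicate 1. The control libraries held 4 and 6 counts here and the P libraries 67 and 89, so the size of each fold is known only roughly.

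The remaining 6 Tlr4 peaks were lower or not called. One in the gene body (chr4:66843024-66843740) was lower in 14 of 17 stimulations and one 4668 bp outside the gene in 9. The other 4 gave 0 or 1 call each.

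**Figure D4:**
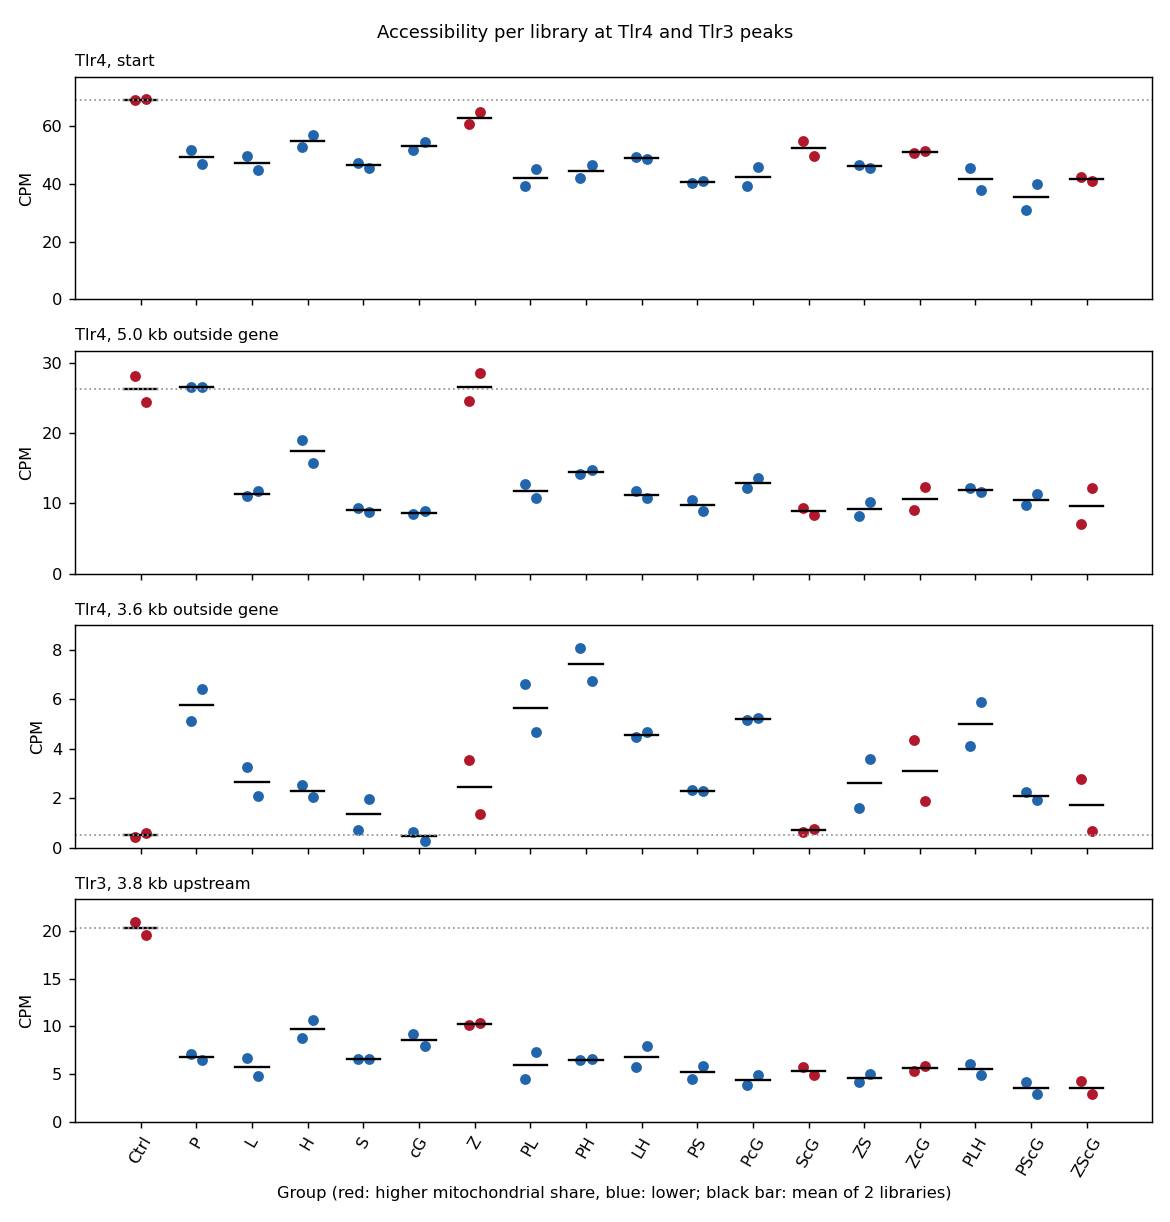
CPM in each library (points) and the mean of 2 libraries (bars) in the 18 groups, for 3 peaks at Tlr4 and the peak upstream of Tlr3. Red marks groups of high mitochondrial share. Control is the top group at the Tlr4 start and upstream of Tlr3, control, P and Z stand together at the peak 5020 bp from Tlr4, and PH, P, PL and PcG are highest at the peak 3566 bp from it.

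Tlr2, which pairs with Tlr1 or Tlr6 to bind bacterial lipopeptides, moved in opposite directions at different peaks. Over its 3 tested peaks, 10 of 51 tests were higher and 13 lower, and under total-count scaling 14 were higher and 6 lower, so the leading direction flips with the scaling. One more peak, with 163 counts over all libraries, was too low to test. The peak in the gene body (chr3:83839159-83840016) held 15.5 and 17.2 CPM in control and 17 and 16.5 CPM in P. It fell to 8.56 and 5.25 CPM in ScG and to 7.04 and 3.86 CPM in ZScG. P thus overlapped control, and both libraries of ScG and ZScG lay below both of control. It was lower in 11 of 17 stimulations, by as much as -1.55 ± 0.219 in ZScG (adjusted p = 1.17e-09). Of the 11 calls, 5 held with each library left out (PScG, ScG, ZS, ZcG and ZScG), and 5 held under total-count scaling. The start peak (chr3:83840840-83842207) was lower in L (-0.38 ± 0.141, adjusted p = 0.0355) and LH (-0.55 ± 0.144, 0.00197), and neither call held without control replicate 1 or under total-count scaling, where L gave 0.04. Z, with 27.4 and 28.8 CPM against 25.7 and 21.7 CPM in control, had the highest mean.

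The third tested Tlr2 peak (chr3:83844663-83845829), 2839 bp upstream, supplied each of the 10 higher calls and was singled out after its values were seen. It held 27.5 and 25.4 CPM in control and 44.9 and 43.1 CPM in P, with no overlap. The P difference was 0.73 and the largest of the 17. S and cG each gave 0.45, Z 0.42, PH 0.56 and PScG 0.53, whereas L (0.28) and H (0.03) were not called. The calls in P, PH, PS and PScG held with each library left out. Those in S, cG, Z, PcG, ScG and PLH were each lost without control replicate 2.

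Tlr1 and Tlr6, the partners of Tlr2, lie side by side on chromosome 5 and showed no call at either start in any of the 17 stimulations, beside 25.2% of tests over all peaks. At the Tlr1 start (chr5:64933386-64933727) counts were too low to bear on it, with 0.109 and 1.06 CPM in control and at most 1.97 CPM in any library. Its fold changes are therefore set by 1 control library: without control replicate 2, 12 of the 17 stimulations were called higher. At the Tlr6 start (chr5:64958983-64960283) the means ran only from 4.22 CPM in Z to 7.43 CPM in L, beside 4.15 and 6.56 CPM in control. By DESeq2 neither start had a call, and an unadjusted p under 0.05 was reached in 3 of 17 tests at the Tlr1 start and 0 at the Tlr6 start. Under total-count scaling 2 stimulations were called higher at the Tlr1 start and 4 at the Tlr6 start.

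At peaks that do not overlap a start both genes changed. Downstream of Tlr1 by 1223 bp (chr5:64922870-64923457), control held 9.39 and 6.85 CPM, P 10.9 and 9.24 CPM, and L 8.76 and 9.98 CPM. ZScG held 1.90 and 1.10 CPM and ZS 2.47 and 0.922 CPM. Every library of a group with S or cG lay below both control libraries. The peak was lower in 11 of 17 stimulations, by -0.91 ± 0.289 in PL to -2.39 ± 0.36 in ZScG (adjusted p = 1.16e-08). Calls in PL, PS and PLH were lost without control replicate 1 (adjusted p of 0.2, 0.058 and 0.12), and PL also without PL replicate 2. Over the 4 tested Tlr1 peaks, 4 of 68 tests were higher and 11 lower, or 9 and 9 under total-count scaling.

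At Tlr6, a peak in the gene body (chr5:64960558-64961957) held 32.1 and 31.3 CPM in control, 41.7 and 49.1 CPM in P, and 27.3 and 20.0 CPM in ZScG. This peak begins within 1 kb upstream of 1 of the 2 RefSeq starts of Tlr6, at chr5:64960048. The P libraries lay above and the ZScG libraries below both of control. It was higher in P, L, PL, PH, LH and PcG and lower in ScG and ZScG, from -0.41 ± 0.13 to 0.52 ± 0.118 in P (adjusted p = 0.000297). The P call alone held with each library left out. The others were lost without 1 or more libraries of their own or of control: L replicate 2 (L then 0.20), PL replicate 2, PH replicate 1, LH replicate 1 (LH then 0.23), PcG replicate 2, either ScG library and ZScG replicate 2 (ZScG then -0.21). ScG and ZScG are compared with control within the high mitochondrial set, and the 6 higher groups are not. Over its 7 peaks Tlr6 had 18 higher and 15 lower calls in 119 tests, or 33 and 11 under total-count scaling. Of the 18 higher calls, 10 came from a peak in the gene body (chr5:64957006-64957292) that held at most 2.55 CPM in any library. The lower calls came mainly from a peak 9475 bp upstream that also overlaps Fam114a1, called lower in 12 of 17.

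Cd14, which hands LPS to Tlr4, gained accessibility at its start with P alone. The start peak (chr18:36725392-36727100) held 43.9 and 44.0 CPM in P against 26.3 and 23.1 CPM in control. The next group, PH, held 29.4 and 31.8 CPM, and ZScG was lowest with 13.7 and 15.0 CPM. No other library reached the P libraries. The log2 fold change in P was 0.83 ± 0.129 (adjusted p = 4.17e-08). P also exceeded L by 0.99 and Z by 0.70 at this peak (adjusted p of 7.83e-11 and 1.52e-05), comparisons in which no control library enters. P and L both lie in the low mitochondrial set, whereas P and Z lie in different sets. Adding L, H, S or cG to P lowered the Cd14 start, by -0.70, -0.52, -1.05 and -0.86, and the L, S and cG values held with each library left out. LPS itself gave -0.15 ± 0.133 against control (adjusted p = 0.442). The peak was lower in S, LH, ScG, ZS, ZcG and ZScG, of which only ZScG (-0.78 ± 0.15) held without control replicate 1, and PcG, at -0.03, became 0.40 and called under total-count scaling.

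A peak 4526 bp outside Cd14 (chr18:36719579-36720538), noted after its values were seen, had a like order. It held 20.8 and 18.2 CPM in P against 8.85 and 8.49 CPM in control, a difference of 1.17, and PH, PL and PLH were higher by 0.65, 0.61 and 0.49. P did not overlap any other group there, and the P call held with each library left out while the other 3 did not. In contrast, a low peak 8815 bp outside the gene (chr18:36715774-36716249, which also overlaps Gm41699) was lower in 14 of 17 stimulations, by up to -2.66 in cG, and was not called in P, H or Z. Over 7 peaks Cd14 had 13 higher and 26 lower calls in 119 tests, or 30 and 17 under total-count scaling, so the leading direction flips with the scaling.

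Tlr3, the endosomal receptor for double-stranded RNA, was lower at an upstream peak in all 17 stimulations. A peak 3806 bp upstream (chr8:45414881-45415556) held 21.0 and 19.6 CPM in control and at most 10.7 CPM in any stimulated library. Single ligands averaged 10.2 CPM in Z, 9.73 in H, 8.59 in cG, 6.77 in P, 6.56 in S and 5.76 in L. Pairs lay between 4.37 CPM in PcG and 6.81 CPM in LH, and the triplets PLH, PScG and ZScG at 5.50, 3.57 and 3.57 CPM. Control overlapped no other group, and of the 17 neighbouring steps in the order only control to Z and cG to LH had no overlap. All 17 stimulations were lower, by -0.98 ± 0.223 in Z (adjusted p = 0.00121) to -2.52 ± 0.244 in PScG (3.38e-18), beside 12.3% of tests called lower over all peaks. This peak was named for the largest F among the Tlr3 peaks in these data, so its calls cannot be weighed against that share. All 17 calls held with each library left out in turn and under total-count scaling. Within the high set Z, ZcG, ScG and ZScG gave -0.98, -1.85, -1.92 and -2.48. Because every one of the 17 values shares the 2 control libraries, they are not independent of each other. Adding S or cG to Z, which uses no control, lowered the peak by -1.15 and -0.87, and the second of these was lost without any 1 of its 4 libraries. The first compares groups of different mitochondrial sets, the second groups of the high set.

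The Tlr3 start peak (chr8:45409780-45411094), which holds the printed windows, behaved otherwise. It held 10.0 and 9.24 CPM in P and 10.6 and 10.5 CPM in PLH, against 16.2 and 15.7 CPM in control and 19.6 and 20.9 CPM in cG. Both P libraries lay below every library of the other single ligands and of control. It was lower in P (-0.73 ± 0.174, adjusted p = 0.00064) and PLH (-0.59 ± 0.171, 0.00387). Both held with each library left out, and neither was called under total-count scaling. L exceeded P by 0.90 (adjusted p = 1.27e-05) and P was below Z by -0.92 (3.01e-05), and both held under total-count scaling. P and L lie in the same mitochondrial set, P and Z in different ones. Adding cG to P raised the peak by 0.72 (0.000659). Over its 3 peaks Tlr3 had 0 higher and 20 lower calls in 51 tests by edgeR, 0 and 19 by DESeq2, and 4 and 17 under total-count scaling.

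Tlr9, the endosomal receptor for unmethylated CpG DNA, opened at its start. The peak (chr9:106221646-106223519), which covers the printed stretch, held 9.39 and 10.2 CPM in control, 9.25 and 10.5 CPM in P, and 9.97 and 10.9 CPM in Z. H held 13.5 and 13.3 CPM, S 16.9 and 17.1, cG 18.5 and 17.6, and L 17.7 and 22.8. PS was highest with 18.8 and 23.3 CPM. Control, P and Z overlapped one another, while S, cG and L lay above all of them. The peak was higher in 10 of 17 stimulations: L, S, cG, LH, PS, PcG, ZS, ZcG, PLH and PScG. The log2 fold change was 1.05 ± 0.172 in L (adjusted p = 2.54e-07), 0.88 ± 0.176 in cG, 0.79 ± 0.174 in S and 1.11 ± 0.17 in PS (1.61e-08), and 0.01 ± 0.186 in P (0.987). L also exceeded P by 1.04 and PS exceeded P by 1.10, within the low mitochondrial set and without control. Within the high set only ZcG was called (0.53 ± 0.188, adjusted p = 0.0304), with ScG at 0.39 and ZScG at 0.37 not called. The ZcG call was lost without either control library or ZcG replicate 2 (then 0.31), the PcG call without PcG replicate 2 (then 0.40) and the ZS call without ZS replicate 1 (then 0.53).

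A peak inside the Tlr9 gene (chr9:106226104-106226623), noted after its values were seen, was lower where called. It held 5.46 and 4.05 CPM in control and 1.76 and 1.73 CPM in P, without overlap. It was lower in 6 of 17 stimulations (P, PL, PH, ScG, PLH and PScG), by up to -1.44 in P (adjusted p = 0.00165). Each of the 6 calls was lost without control replicate 1, and P alone was called under total-count scaling. A peak 6989 bp downstream that overlaps Alas1 was higher in 13 of 17 stimulations, and one 2735 bp downstream (chr9:106229611-106231638) was lower in 4. Over its 9 peaks Tlr9 had 27 higher and 12 lower calls in 153 tests, or 40 and 1 under total-count scaling. Of the 27 higher calls, 13 came from the peak 6989 bp downstream, 10 from the start and 3 from a peak 9235 bp downstream. The peaks at 6989 and 9235 bp overlap Alas1, which encodes an enzyme of haem synthesis, and cannot be assigned to Tlr9 alone. With TMM scaling, the lead of higher over lower calls at Tlr9 depends on them.

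At its start Myd88 had the smallest ratio of highest to lowest group mean of the 9 start peaks (1.19). The start peak (chr9:119339408-119342031), which covers the printed Myd88 stretch and also overlaps Acaa1a, held 86.5 and 87.7 CPM in control. Over all 36 libraries it ran from 69.7 to 95.6 CPM, and group means from 74.2 CPM in PH to 88.6 CPM in cG. No 2 neighbouring groups in that order were without overlap. The 18 groups did not differ by edgeR (adjusted p = 0.281). PH alone was called lower (-0.23 ± 0.0921, adjusted p = 0.0495), a call that was lost without either control library or PH replicate 1 and had the opposite sign with total-count scaling (0.10) and abundance-dependent offsets (0.07). A peak 845 bp downstream (chr9:119334228-119335089) held 12.5 and 13.8 CPM in control and between 5.75 and 10.5 CPM in every stimulated library, with no overlap. It was lower in 14 of 17 stimulations, by -0.60 ± 0.208 in LH to -1.13 ± 0.22 in PScG (6.77e-06), and gave -0.42 in P, -0.44 in L and -0.51 in Z, not called. Of the 14 calls, 8 held with each library left out and 7 under total-count scaling. The calls in H, S, cG, PL, LH and PLH were lost without control replicate 2. Those in H, S and PL were also lost without replicate 2 of that group, that in cG without cG replicate 1, and that in LH without either LH library. The calls in H and LH were lost without control replicate 1 as well. The other 3 peaks gave 0 calls in 51 tests by edgeR and by DESeq2, with 1 test at an unadjusted p under 0.05. By edgeR Myd88 had 0 higher and 15 lower calls in 85 tests, by DESeq2 0 and 14, and under total-count scaling 5 and 7.

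Ticam1 opened on its downstream side while its start was called in 1 of 17 stimulations. A peak 2388 bp downstream (chr17:56264623-56267074) held 32.8 and 36.9 CPM in control, 36.5 and 36.6 CPM in H, and 38.6 and 36.7 CPM in Z. P held 51.1 and 50.3 CPM, cG 53.1 and 54.1, S 55.0 and 60.9, L 56.8 and 60.8, and PS 63.6 and 69.7. Control overlapped H, and every library of the 15 groups other than control, H and Z lay above all libraries of those 3. It was higher in those 15 stimulations, from 0.32 ± 0.109 in ZS (adjusted p = 0.0177) to 0.94 ± 0.104 in PS (1.4e-14), beside 13.0% of tests called higher over all peaks. As the Ticam1 peak with the largest F in these data, it was chosen by its values and cannot be weighed against that share. H gave 0.07 ± 0.108 and Z 0.11 ± 0.112. Calls in ZS, ZcG and ZScG were lost without control replicate 1 (adjusted p of 0.21, 0.066 and 0.056), and ZS also without ZS replicate 2. All 15 held under total-count scaling. Within the high set ScG gave 0.54, ZcG 0.42 and ZScG 0.41. P exceeded Z by 0.43 and LH exceeded H by 0.56 without control, and both held with each library left out. LH and H lie in the low mitochondrial set, whereas P and Z lie in different sets.

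A peak over the far end of the Ticam1 gene (chr17:56269017-56270339), noted after its values were seen, was higher in 13 of 17 stimulations. It held 8.19 and 6.17 CPM in control, 17.7 and 17.9 CPM in S, and 16.1 and 16.8 CPM in cG, against 8.33 and 9.10 CPM in P. S and cG gave 1.31 and 1.20, and L 0.76, while P (0.29), H, Z and PH were not called. The L, PL, LH and PLH calls were lost without control replicate 2. The start peak (chr17:56276514-56277735) held 46.1 and 46.2 CPM in control, group means ran from 35.4 CPM in H to 48.3 CPM in ScG, and H alone was called (-0.38 ± 0.11, adjusted p = 0.0125). That call was lost without either control library or H replicate 2. Across the 18 groups the start peak did differ by edgeR (adjusted p = 0.00102). Over its 9 peaks Ticam1 had 36 higher and 1 lower call in 153 tests, or 60 and 0 under total-count scaling.

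**Figure D5:**
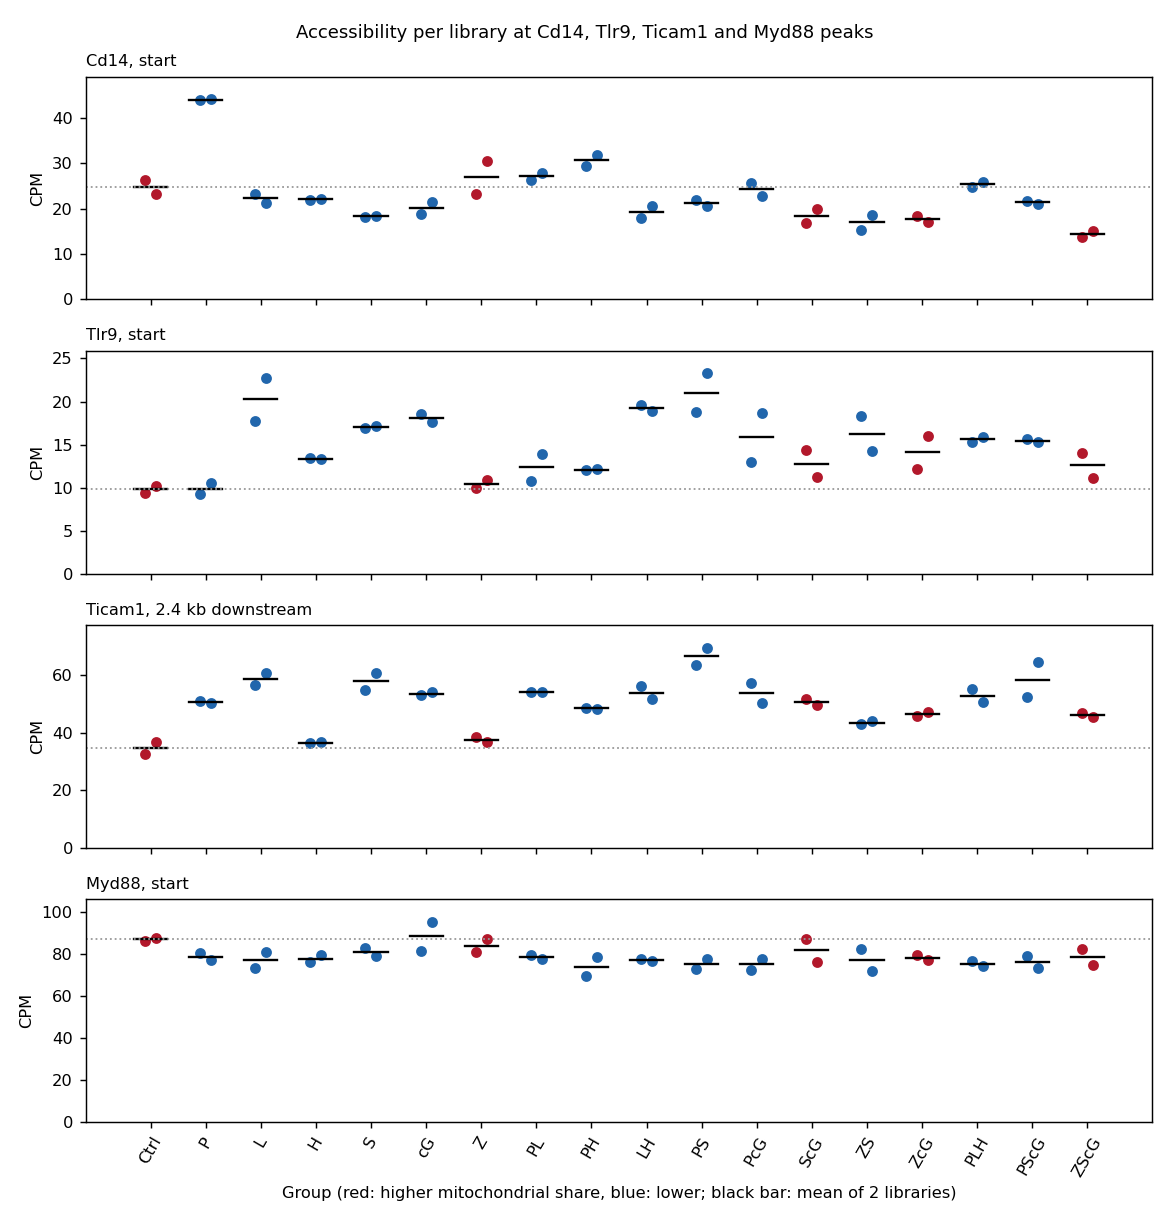
CPM in each library (points) and the mean of 2 libraries (bars) in the 18 groups at the starts of Cd14, Tlr9 and Myd88 and the peak 2388 bp downstream of Ticam1. P stands alone at the Cd14 start, control, P and Z are lowest at the Tlr9 start, control, H and Z are lowest at the Ticam1 peak, and the Myd88 start spans 69.7 to 95.6 CPM without separate groups.

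Single ligands were next compared with one another, without control. LPS against PAM changed 17 of 56 member peaks (8 higher in L, 9 lower), beside 11.1% of all peaks (5.18% higher, 5.90% lower), and both groups lie in the low mitochondrial set. Cd14 was lower in L at 4 of its 7 peaks, and Tlr9 was higher in L at 4 of its 9. Among these, the Cd14 peaks 8815 and 6591 bp away also overlap Gm41699 and Tmco6. The Tlr9 peaks 6989 and 9235 bp downstream also overlap Alas1. The values that held with each library left out were those at the starts of Cd14 (-0.99), Tlr3 (0.90) and Tlr9 (1.04), the Cd14 peak 4526 bp away (-0.86) and the Tlr4 peak 5020 bp away (-1.22). PAM against zymosan changed 11 of 56 (7 higher in P, 4 lower), also beside 11.1% of all peaks (5.13% higher, 5.94% lower), but these groups lie in different mitochondrial sets. S against cG changed 0 of 56 by edgeR, 0 by DESeq2, and 6 at an unadjusted p under 0.05, beside 0.948% of all peaks. In all, 28 of 168 tests were called (16.7%, beside 7.70% over all peaks, 3.68% higher and 4.02% lower), of which 53.6% were higher, or 70.0% under total-count scaling. Without P replicate 2 there were 16 calls and without L replicate 2 there were 18.

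Adding 1 ligand to a single ligand or a pair gave 25 comparisons that use no control library. Of 1400 tests, 36 were higher and 68 lower (7.43%), beside 4.55% of tests over all peaks (2.45% higher, 2.09% lower). Within the low mitochondrial set 75 of 896 were called (8.37%, beside 4.56%), within the high set 8 of 168 (4.76%, beside 4.21%) and across sets 21 of 336 (6.25%, beside 4.69%). Of the 104 calls, 31 held with each library left out. PS differed from P at 19 of 56 peaks (18.1% of all peaks), PcG from P at 15 (14.8%) and ZS from Z at 13 (15.2%). PH differed from H at 9 (7.56%), PL from P at 8 (8.47%), PcG from cG at 8 (9.11%) and ZcG from Z at 6 (9.08%). At the peak downstream of Tlr1 named above, PL, PS and PcG were lower than P by -1.22, -1.42 and -1.70, and these 3 held with each library left out. At the Tlr4 peak 3566 bp from the gene, PcG exceeded cG by 3.49 and PH exceeded H by 1.67, and PS was below P by -1.32. These held too.

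Departure of a pair from the sum of its 2 ligands on the log2 scale (pair minus both singles plus control) was called in 39 of 448 tests (8.71%), 13 positive and 26 negative, beside 5.18% of tests over all peaks (2.07% positive, 3.11% negative). ScG supplied 12 and PL 10. For ScG the background was 14.4% and for PL 6.77%. Each such contrast spans both mitochondrial sets. For S with cG the split is complete. The groups added, ScG and control, had mean mitochondrial shares of 59.4% and 61.0%. Those subtracted, S and cG, had 47.9% and 46.1%. A departure of this pair therefore cannot be told apart from a difference that belongs to this share. At the 5020 bp peak of Tlr4, S and cG alone gave -1.55 and -1.60 and both together -1.57, a departure of 1.57 ± 0.257 (adjusted p = 5.26e-07). At the Tlr9 start S and cG gave 0.79 and 0.88 and both together 0.39, a departure of -1.28 ± 0.243 (1.89e-05). At the downstream Ticam1 peak they gave 0.73 and 0.62 and together 0.54, a departure of -0.81 ± 0.147 (6.6e-06). In these 3 cases the pair lay no farther from control than the stronger of its 2 ligands, and the 3 departures held with each library left out and under total-count scaling. Without control replicate 2 the number of calls was 23, and under total-count scaling 74, of which 5.41% rather than 33.3% were positive. The triplet interaction, tested in the same way, was called in 1 of 168 tests (0.595%, beside 1.56% of tests over all peaks, 0.84% positive and 0.721% negative): the Tlr2 peak 2839 bp upstream in PScG, with 0.85 (adjusted p = 0.0271). It was lost without control replicate 2, S replicate 1, cG replicate 2, PS replicate 2, PcG replicate 1, ScG replicate 2 or PScG replicate 2, with adjusted p up to 0.159, and 16 were called under total-count scaling.

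Other genes of the pathway were read the same way: 35 genes that encode further receptors, co-receptors, chaperones, adaptors and kinases, with 359 tested peaks. Against control 960 of 6103 tests were higher and 761 lower (28.2%, beside 25.2% over all peaks). The genes described below are only some of the list, and no rule for picking them was set beforehand. Others had many calls in both directions. Ikbkb had 55 higher and 26 lower (47.6% of tests called), Irak3 116 and 72 (38.1%), Irak4 21 and 32 (39.0%) and Tbk1 47 and 36 (34.9%). Traf3, an adaptor between Ticam1 and interferon kinases, had 91 higher calls and 1 lower in 204 tests of 12 peaks (45.1%). Pik3ap1, an adaptor to phosphoinositide 3-kinase, had 158 higher and 11 lower in 680 tests of 40 peaks (24.9%, near the share over all peaks). Irak2, a kinase bound by Myd88, had 145 and 50 in 510 tests of 30 peaks (38.2%). Tirap, the adaptor that brings Myd88 to Tlr2 and Tlr4, had 45 lower and 6 higher calls in 85 tests of 5 peaks (60.0%), and Cd36, a scavenger co-receptor, 156 lower and 27 higher in 578 tests of 34 peaks (31.7%). Hsp90b1, a chaperone of the receptors, had 27 lower and 0 higher in 51 tests of 3 peaks (52.9%). Sigirr and Tab1, with 3 and 2 peaks, had 0 calls by edgeR and by DESeq2, and 6 and 8 tests at an unadjusted p under 0.05.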

How the data were processed

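Counts per peak in 36 ATAC-seq libraries (18 groups of 2) were analysed as deposited: the authors' table holds whole read counts for 119751 peaks in mm10, not normalised. Per the submitters' processing notes, Bowtie2 2.2.9, MACS2 1.4, bedtools and featureCounts were used, with no role or order given. Libraries had 12 PCR cycles and 42 read cycles, per the labels' protocols. Whether peaks were called on pooled libraries, and how duplicates and the transposase offset were treated, is not given in the sources used here. PCR copies cannot be told from separate molecules in such counts.

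The peak that spans the mitochondrial genome was left out of library sizes and tests. A low-count filter (filterByExpr, minimum count 10) then kept 119464 peaks. All groups entered 1 fit of edgeR 4.0.16's quasi-likelihood test (R 4.3.3, TMM factors, common dispersion 0.020, 18 residual degrees of freedom). P-values were adjusted by Benjamini-Hochberg over all tested peaks within each of 56 contrasts, with a threshold of 0.05. Fold changes are on the log2 scale with standard errors. CPM values were computed from the counts and are not length corrected. Total counts per library set the precision, and they ranged as stated in the results.

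One marker gene is not reported here. Members, the pathway and marker lists and the contrasts were chosen with earlier results of these data known. Named peaks are, for each gene, the tested peak over its start (over a gene end where the strand is not given) and the tested peak with the largest F across the 18 groups, 16 in all. Gene positions came from RefSeq's gene table (GRCm38.p6), and promoters from its promoter table. Alternatives were DESeq2 1.42.0 (Wald test and size factors), total-count scaling, abundance-dependent offsets, no count filter, the mitochondrial peak kept, libraries thinned to 1 depth, a replicate block and leaving out each library.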

Additional observations from a re-analysis of the deposited data

Results flagged for a closer look

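At the named peaks, 16 pair interactions passed a test of the interaction itself by edgeR's quasi-likelihood test, so that a ligand's log2 effect differed with and without the second ligand. Each uses the 2 control libraries, and each spans both sets of mitochondrial share, whose part was not tested.

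Most common was the pair of S and cG, called at 14.4% of all peaks. Its interaction was 1.37 ± 0.456 downstream of Tlr1 (adjusted p = 0.0267), 0.56 ± 0.147 at the Tlr4 start (0.0034), 1.57 at the Tlr4 peak 5020 bp away, 0.95 ± 0.332 upstream of Tlr3 (0.0369), -1.28 at the Tlr9 start and -0.81 downstream of Ticam1. All 6 have the sign opposite to that of S and cG alone. None of the 6 can be told apart from the mitochondrial share, because the groups added and the groups subtracted belong to different sets. The Tlr1 value was lost without control replicate 1, S replicate 2, ScG replicate 2 or cG replicate 2, and the Tlr3 value without 7 of 8 libraries, all but cG replicate 1.

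For P with L the interaction was -1.44 ± 0.382 downstream of Tlr1 (0.00732), -0.55 ± 0.182 at the Cd14 start (0.0458), 1.61 ± 0.332 upstream of Tlr3 (0.000222), -0.74 ± 0.247 at the Tlr9 start (0.0476) and -0.66 ± 0.146 downstream of Ticam1 (0.000749). With libraries left out in turn, the Tlr3 and Ticam1 values held. The Tlr1 value was lost without control replicate 2 (0.0708), the Tlr9 value without 5 of 8 libraries (both of control, L replicate 2, P replicate 2 and PL replicate 1) and the Cd14 value without any but control replicate 1.

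For P with S it was -0.62 ± 0.182 at the Cd14 start (0.0238) and 1.26 ± 0.32 upstream of Tlr3 (0.00633), the first lost without control replicate 2, PS replicate 2 or either library of P or S, the second without PS replicate 2. L with H gave 1.31 ± 0.318 upstream of Tlr3 (0.00442), lost without L replicate 2 or LH replicate 2. Downstream of Ticam1, P with cG gave -0.53 ± 0.145 (0.0176) and Z with S gave -0.52 ± 0.152 (0.0295). The first was lost without control replicate 1, PcG replicate 2 or cG replicate 2, the second without control replicate 1, S replicate 2 or any library of Z or ZS.

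Under the other settings, 8 of the 16 values were lost at least once. Total-count scaling lost the S with cG values at the Tlr4 start (adjusted p = 0.782), downstream of Tlr1 (0.24) and upstream of Tlr3 (0.526), and the L with H value upstream of Tlr3 (0.0557). Libraries thinned to 1 depth lost the S with cG values at Tlr1 (0.0954) and Tlr3 (0.086), the P with L values at the Cd14 start (0.138) and the Tlr9 start (0.123), and the P with S values at the Cd14 start (0.202) and upstream of Tlr3 (0.0624). The P with L value at the Tlr9 start was also lost by the DESeq2 Wald test (0.0779) and under abundance-dependent offsets (0.0693).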

How the results depend on the processing

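The 2 control libraries stand behind 17 comparisons. Calls against control ran from 208 (without control replicate 1) to 292 over the left-out libraries, those for an added ligand from 89 to 104, pair interactions from 23 (without control replicate 2) to 40, triplet interactions from 0 to 1, single ligands against each other from 16 (without P replicate 2; 18 without L replicate 2) to 28, those at the named peaks from 106 to 131, and peaks that differ among groups from 34 to 40. A left-out library leaves its group with 1, assumed to vary like the others. Over the other alternatives calls against control ran from 263 (thinned) to 320 (total-count scaling).

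Total-count scaling gave 74 pair and 16 triplet interactions, abundance-dependent offsets 2 triplet interactions, and libraries thinned to 1 depth 25 and 0. Thinning lowers every library to the smallest total; for the other changes the cause was not tested. At the named peaks against control, total-count scaling reversed 9 of 272 values: Tlr2 start in L (0.0444), Cd14 start in PcG (0.399), Tlr3 start in PcG (0.4112), Myd88 start in L (0.2545), S (0.2626) and PH (0.1001), and Ticam1 start in L (0.3633), PcG (0.38) and PScG (0.2998). It weakened 32 more and brought 26 past the threshold. Abundance-dependent offsets reversed the Myd88 start in PH (0.0693). DESeq2 and its size factors each left 266 of 272 on their side of the threshold with their sign, the mitochondrial peak kept 265, and left-out libraries 983 of 1088.

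With the replicate number as a block, calls were 291 against control, 106 for an added ligand, 39 pair and 1 triplet interactions, 38 among groups, 28 between single ligands and 130 at the named peaks. Replicate deviations correlated between groups by -0.04 to 0.03 over 153 pairs of groups. Many peaks hold few counts, whose noise lowers such correlations, so these values cannot show whether the numbers pair libraries.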

Other observations

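Over all 32072 tested peaks outside the 9 loci with a mean of at least 5 CPM, those whose 18 group means followed a named peak most closely were ranked by Pearson's r. The points share libraries, depth and scaling, so r describes likeness only. For the peak downstream of Tlr1 it was one overlapping Map3k9 (r = 0.963), for the Tlr2 gene body one overlapping Rb1 (0.958), and for the Tlr4 peak 5020 bp away one nearest to Cd163 (0.963), a scavenger receptor of macrophages. For the Tlr6 gene body it was one overlapping Myof (0.956), for the Cd14 start one overlapping Trps1 (0.941) and for the peak upstream of Tlr3 one overlapping Tmem168 (0.956). For the Tlr9 start it was one nearest to Plekho1 (0.897), for the peak downstream of Myd88 one nearest to Gm5150 (0.928) and for that downstream of Ticam1 one overlapping Znrf3 (0.94).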
